A study of Homo sapiens with 9 samples.

Results

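Transcripts that moved the same way in HEK293 cells given more MOF and in HEK293 cells given less were taken from a comparison of 6 transfected arrays with 3 wild type arrays. HEK293 is an established human embryonic kidney line, and MOF, the product of KAT8, is the acetyltransferase of lysine 16 on histone H4. All 9 arrays of the series enter: 3 of untreated wild type cells, 3 of cells transfected with a plasmid that encodes hMOF (overexpression) and 3 of cells in which hMOF was depleted with siRNA (knockdown). The overexpression and knockdown groups were weighted equally, and the 3 replicate 1 arrays, 1 in each group, had a batch term. A probe set was called common where this pooled difference passed an adjusted p of 0.05 (limma, over all 27307 probe sets tested) and the differences of both treated groups from wild type had the same sign. Of the 27307, 3591 met this (13.2%), 1745 higher (6.39%) and 1846 lower (6.76%) in the transfected cells. At the level of genes, each represented by its brightest tested probe set, 1979 of 12036 were common (16.4%), 806 higher (6.7%) and 1173 lower (9.75%).

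The wild type cells had no treatment at all, and none of the 9 arrays is labelled as cells transfected with an unrelated plasmid or RNA. A response to transfection, to plasmid or siRNA, and to a change of MOF in either direction therefore cannot be told apart in this comparison. The series' design text mentions EGPF dsRNA (spelled so there) as the control treatment; such samples were not analysed here. Neither the time after transfection nor the origin of the replicates is in the labels: p-values reflect how far these arrays scatter, and that scatter may be technical only. Both treated groups were set against the same 3 wild type arrays, so their differences share any deviation of those arrays. The count of common probe sets rested on each of them: leaving out their replicate 1 gave 1766, leaving out replicate 2 gave 1931 and leaving out replicate 3 gave 2111.

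Immediate early genes are switched on within minutes of a growth factor, stretch or stress signal, through kinases of the ERK and p38 families and through the factors SRF, TEAD and SMAD. Their products include the AP-1 factors FOS and JUN, and feedback inhibitors such as the DUSP phosphatases and SPRY proteins that shut the signal off again. GADD45B, CCN1 and ID1, the 3 genes that mark the shared response, stand for such inducible genes: GADD45B is a stress-induced regulator of p38 signalling, CCN1 a secreted matrix-associated protein induced through YAP and SRF, and ID1 an inhibitor of basic helix-loop-helix factors induced by BMP signals.

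The promoters of 5 common genes are shown because their genes carry the results below: 4 that were higher after both transfections, with short elements known from inducible genes, and MSMO1, an enzyme of cholesterol synthesis that was lower, with repeated CCAAT boxes. Each runs from 250 bases before to 50 bases after the start of transcription in RefSeq (GRCh38.p14), 5′ to 3′ on the gene's strand. Capitals mark matches, on either strand, to several motifs. TATAAA is the TATA box and CCAAT the box named after its letters. The binding sequence of CREB and ATF proteins is TGACGTCA. TEAD factors bind GGAATG. The windows lie at chr19:2475877-2476176 (forward strand) for GADD45B, chr20:31605039-31605338 (forward strand) for ID1, chr19:48872171-48872470 (forward strand) for PPP1R15A, chr6:131951323-131951622 (reverse strand) for CCN2 and chr4:165327419-165327718 (forward strand) for MSMO1.
GADD45B: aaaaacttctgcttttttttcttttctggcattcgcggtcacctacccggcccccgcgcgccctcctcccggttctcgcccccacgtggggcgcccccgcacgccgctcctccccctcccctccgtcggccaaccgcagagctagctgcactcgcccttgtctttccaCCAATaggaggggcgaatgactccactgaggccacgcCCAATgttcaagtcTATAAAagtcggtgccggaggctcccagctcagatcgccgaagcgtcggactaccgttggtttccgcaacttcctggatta
ID1: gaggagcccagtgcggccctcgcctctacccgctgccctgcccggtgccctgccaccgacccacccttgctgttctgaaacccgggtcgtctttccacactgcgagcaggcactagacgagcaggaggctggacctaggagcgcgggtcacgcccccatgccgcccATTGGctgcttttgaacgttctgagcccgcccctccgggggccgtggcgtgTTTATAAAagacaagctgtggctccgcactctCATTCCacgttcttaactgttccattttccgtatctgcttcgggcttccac
PPP1R15A: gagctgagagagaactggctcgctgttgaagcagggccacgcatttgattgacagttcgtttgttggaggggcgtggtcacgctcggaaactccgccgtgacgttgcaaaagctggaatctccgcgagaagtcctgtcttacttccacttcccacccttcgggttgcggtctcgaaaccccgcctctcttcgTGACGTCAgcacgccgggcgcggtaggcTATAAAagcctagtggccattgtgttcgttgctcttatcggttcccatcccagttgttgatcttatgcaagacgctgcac
CCN2: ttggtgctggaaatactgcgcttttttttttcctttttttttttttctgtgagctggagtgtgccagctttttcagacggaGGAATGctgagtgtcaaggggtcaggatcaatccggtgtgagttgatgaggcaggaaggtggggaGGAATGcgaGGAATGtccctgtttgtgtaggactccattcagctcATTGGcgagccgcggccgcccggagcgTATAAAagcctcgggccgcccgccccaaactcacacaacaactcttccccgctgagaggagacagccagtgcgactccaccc
MSMO1: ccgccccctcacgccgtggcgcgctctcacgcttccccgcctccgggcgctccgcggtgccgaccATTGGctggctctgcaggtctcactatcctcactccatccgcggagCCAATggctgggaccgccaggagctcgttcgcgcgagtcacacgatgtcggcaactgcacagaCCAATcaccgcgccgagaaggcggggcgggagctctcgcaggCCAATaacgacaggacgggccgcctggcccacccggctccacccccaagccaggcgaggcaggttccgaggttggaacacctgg

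The TATA box of the 4 higher genes printed starts 30 to 32 bases before the start site, and on ID1 matches on both strands overlap in 1 run. Windows of MAFF, which was higher, and of HMGCS1, a sterol gene that was lower, were also scanned and are not printed. That of MAFF held TGACGTCA but no TATAAA, and that of HMGCS1 held TATAAA with its first base at -29 from the start site. ID1 also has a reverse-strand match to GGAATG across its start site. The CCN2 window holds 3 copies of GGAATG, and the MSMO1 window holds 4 of CCAAT. Shares over all genes are given without a test. TATAAA was in 8.06% of 968 promoters of common higher genes, in 6.63% of 1463 promoters of common lower genes and in 6.14% of 14553 promoters of tested genes. For TGACGTCA the shares were 2.79%, 2.26% and 2.80%, for CCAAT 32.6%, 35.5% and 34.8%, and for GGAATG 11.4%, 10.5% and 11%. The CArG box, the site of SRF, was in 1.86%, 0.889% and 1.15%, and CACGTG, the E-box of MYC and MondoA proteins, in 11.6%, 7.18% and 9.39%. A gene can have more than 1 promoter in this table, and a match is a stretch of letters, not a measured site.

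All 3 marker genes were higher in each of the 6 transfected arrays than in any wild type array. Signals are given here in the order of replicates 1, 2 and 3. GADD45B had signals of 478, 433 and 435 in the wild type arrays, 927, 1183 and 1058 after overexpression and 977, 1050.3 and 1077 after knockdown. The treated groups lay side by side, well above wild type, and the pooled difference on the log2(signal + 1) scale was 1.22 (SE 0.12, adjusted p = 0.000126), with 1.23 after overexpression and 1.2 after knockdown. Both of its other tested probe sets were also common. ID1 had signals of 1949, 1862 and 1628 in the wild type arrays, 3038, 3123 and 3294.4 after overexpression and 2972, 2954 and 2933 after knockdown, again with the treated groups close together, and a pooled difference of 0.75 (SE 0.078, adjusted p = 0.000136). CCN1 had signals of 1282, 1661 and 1443 in the wild type arrays, 4858, 4217 and 4637 after overexpression and 2082, 2013 and 2369.5 after knockdown. Here overexpression stood well above knockdown: the pooled difference was 1.11 (SE 0.095, adjusted p = 6.74e-05), with 1.65 after overexpression and 0.56 after knockdown, and the 2 treated groups differed from each other (adjusted p = 3.06e-05). A second, dimmer CCN1 probe set was higher by 1.18 after overexpression but by only 0.054 after knockdown (adjusted p = 0.817), so the rise of CCN1 after knockdown rests on 1 of its 2 probe sets. Within replicates 2 and 3 the pooled differences were 1.33 for GADD45B, 1.0 for CCN1 and 0.82 for ID1, and within replicate 1 they were 0.99, 1.31 and 0.62. The markers were chosen with earlier results of these arrays known, so their separation and p-values describe them and are no independent test.

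KAT8 itself was no member. Its signals were 2909.5, 3797 and 3249 in the wild type arrays, 4594, 4727 and 4763 after overexpression and 432, 706 and 517 after knockdown, a difference of 0.51 after overexpression and -2.61 after knockdown, in opposite directions, as labelled, while the 3 markers went up in both. The rise after overexpression passed narrowly (adjusted p = 0.0478), and a second, dimmer KAT8 probe set showed no call there (0.11, adjusted p = 0.854) but did after knockdown (-1.58, adjusted p = 0.00067). Of the named common genes, 45 had other tested probe sets: in 15 genes all of these were common in the same direction, in 15 some were, and in 15 none was.

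**Figure D1:**
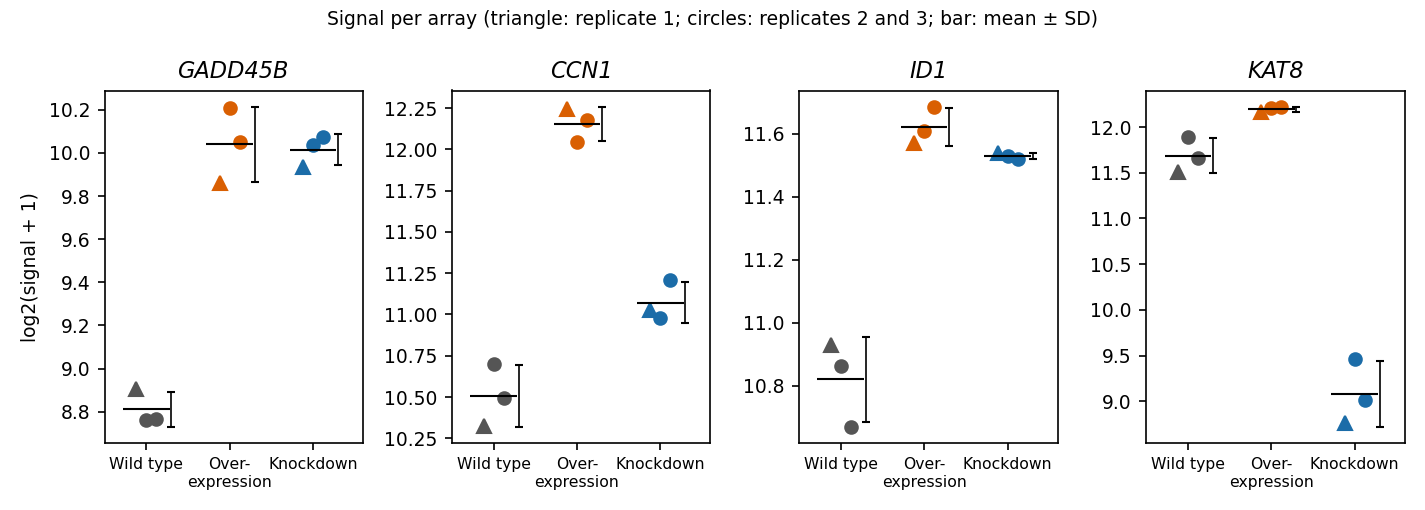
Signals of GADD45B, CCN1, ID1 and KAT8 as log2(signal + 1) on the vertical axis (each panel has its own range, and none starts at 0), for the 3 arrays of each group along the horizontal axis. Triangles are replicate 1, circles replicates 2 and 3, horizontal lines group means and vertical bars ± 1 SD (n = 3). The transfected arrays lie above all wild type arrays for the 3 markers, with overexpression above knockdown for CCN1, while KAT8 is higher after overexpression and lower after knockdown.

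The shared response was mostly small and mostly larger after knockdown. Among common genes the median of the smaller of the 2 differences from wild type was 0.23 (log2) for the 806 higher and 0.19 for the 1173 lower. In 100 higher and 45 lower genes it reached 0.5, and in 13 higher and 0 lower genes it reached 1. At the other end, it was under 0.1 in 118 of the higher genes (14.6%) and 230 of the lower genes (19.6%), where 1 treatment alone carried the call. The knockdown difference was the larger in 612 of the 806 and 998 of the 1173. That share was not computed over all genes tested, so whether it is particular to the common genes was not tested. Taken by themselves, 165 of the 806 and 142 of the 1173 passed the test in both treated groups, 701 and 1074 passed after knockdown, and 232 and 203 after overexpression. The 6 transfected arrays lay all above or all below the wild type arrays in 2015 probe sets (7.38%) and in 967 of the 12036 genes (8.03%; 3.28% above, 4.75% below), and in 316 of the 806 and 445 of the 1173 common ones. Having the same sign in both treatments is by itself frequent, at 61.8% of the probe sets tested.

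The contrast of knockdown with overexpression takes no level from the wild type arrays, and it was used to ask which common genes differed in size between the treatments. It passed in 1747 of the 3591 common probe sets (48.6%), against 27.2% of all probe sets tested; both tests use the same residual variance of a probe set, so they are not independent. Leaving out overexpression replicate 1 turned the 1747 into 1163 (42.6% of the common probe sets then called). Leaving out the wild type replicates 1 or 2 turned it into 930 (52.7%) or 1033 (53.5%), since fewer probe sets were then common. Among common genes, 379 of the higher and 677 of the lower passed it, against 33% of all genes tested, and the knockdown difference was the larger in 334 of the 379 and 634 of the 677. A further 329 probe sets passed the pooled test with opposite signs in the treatments, KAT8 among them, and were left out by the rule.

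Among the rises that were large in both treatments were membrane receptors, an amino acid transporter subunit and stress-induced regulators. KISS1R, the receptor of kisspeptin, had signals of 624, 869.9 and 698 in the wild type arrays, 1239.7, 1281 and 1751 after overexpression and 6844, 10927 and 8496 after knockdown. All 6 transfected arrays were above wild type, but the rise was far larger after knockdown, with 0.96 after overexpression and 3.57 after knockdown (knockdown minus overexpression 2.61, adjusted p = 3.62e-07). TNFRSF12A, the receptor of the cytokine TWEAK, rose evenly, with 942, 847 and 878 in the wild type arrays, 1941, 1564 and 1564 after overexpression and 1798, 1803 and 1465 after knockdown, a pooled difference of 0.92 (SE 0.10, adjusted p = 0.00017). SLC3A2, the heavy chain shared by several amino acid exchangers, had 2603, 3682 and 2748 in the wild type arrays, 5455, 6340 and 5957 after overexpression and 4887, 5388 and 5584 after knockdown. Its pooled difference was 0.91 (SE 0.084, adjusted p = 8.76e-05), and its partner SLC7A5 was also common, at 0.59 after overexpression and 1.10 after knockdown. PPP1R15A, which directs the removal of phosphate from the translation factor eIF2α, had 1158, 1135 and 903 in the wild type arrays, 2695, 1908 and 2118 after overexpression and 1962, 1526 and 1871 after knockdown, with every transfected array above 1500. The pooled difference was 0.91 (SE 0.11, adjusted p = 0.000332).

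The other large rises covered several roles. SYTL5, a Rab27-binding protein of vesicle traffic, was higher by 1.42 after overexpression and 0.80 after knockdown, and the difference between the treatments passed (adjusted p = 0.0231). ND6, a subunit of complex I encoded by mitochondrial DNA, was higher by 0.79 after overexpression and 1.01 after knockdown. ISYNA1, the enzyme that makes inositol phosphate from glucose 6-phosphate, was higher by 0.78 after overexpression and 0.77 after knockdown, though its second tested probe set was not common. IER3, an immediate early survival factor, was higher by 0.68 after overexpression and 0.77 after knockdown. DUSP9, a phosphatase of ERK, was higher by 0.70 after overexpression and 0.68 after knockdown. MSX2, a homeobox factor induced by BMP, was higher by 0.67 after overexpression and 0.89 after knockdown, and MAFG, a small MAF partner of NRF2, by 0.68 after overexpression and 0.75 after knockdown. Of these 7 genes the contrast of the treatments passed in SYTL5 alone.

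The falls were smaller, and no common lower gene fell by 1 or more (log2) in both treatments. TIGD1, a gene derived from a transposase, had 1836, 1881 and 1680 in the wild type arrays, 1165, 1229 and 1043 after overexpression and 981, 1039 and 1232 after knockdown, with no overlap, and a pooled difference of -0.69 (SE 0.11, adjusted p = 0.00156). TIGD2, of the same family, was also lower, with differences of -0.54 after overexpression and -0.54 after knockdown. DCPS, the scavenger enzyme that clears cap structures after mRNA decay, had 4572, 4866 and 3338 in the wild type arrays, 2710.4, 2538 and 2858 after overexpression and 2897, 2424 and 2521 after knockdown. Its pooled difference was -0.66 (SE 0.11, adjusted p = 0.00169), with 1 wild type array well below the other 2. NUDT7, a peroxisomal hydrolase of coenzyme A, had 2488, 2152 and 2365 in the wild type arrays, 1707, 1469.8 and 1541 after overexpression and 850.3, 860 and 662 after knockdown. The differences were -0.57 after overexpression and -1.57 after knockdown, and knockdown was lower than overexpression (adjusted p = 8.95e-05). OMA1, a protease of the inner mitochondrial membrane that responds to stress, had 7294, 8516 and 6641 in the wild type arrays, 4145, 6000.2 and 5518 after overexpression and 3984, 4613 and 4727 after knockdown, and its pooled difference was -0.64 (SE 0.09, adjusted p = 0.000806).

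MAP2K6, the kinase that activates p38, had a pooled difference of -0.60 (SE 0.099), NTAQ1, which deamidates N-terminal glutamine, of -0.57 (SE 0.095), LRRC20 of -0.64 (SE 0.11) and the long noncoding RNA NNT-AS1 of -0.63 (SE 0.13). The call of NNT-AS1 was lost without the batch term. ALMS1, a protein of the centrosome and the base of the cilium, had -0.64 (SE 0.095), but another of its tested probe sets had the opposite sign without passing. ZMYM6, a zinc finger gene, had -0.73 (SE 0.12); after overexpression alone its difference of -0.53 did not pass (adjusted p = 0.0557), and none of its 5 other tested probe sets was common.

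**Figure D2:**
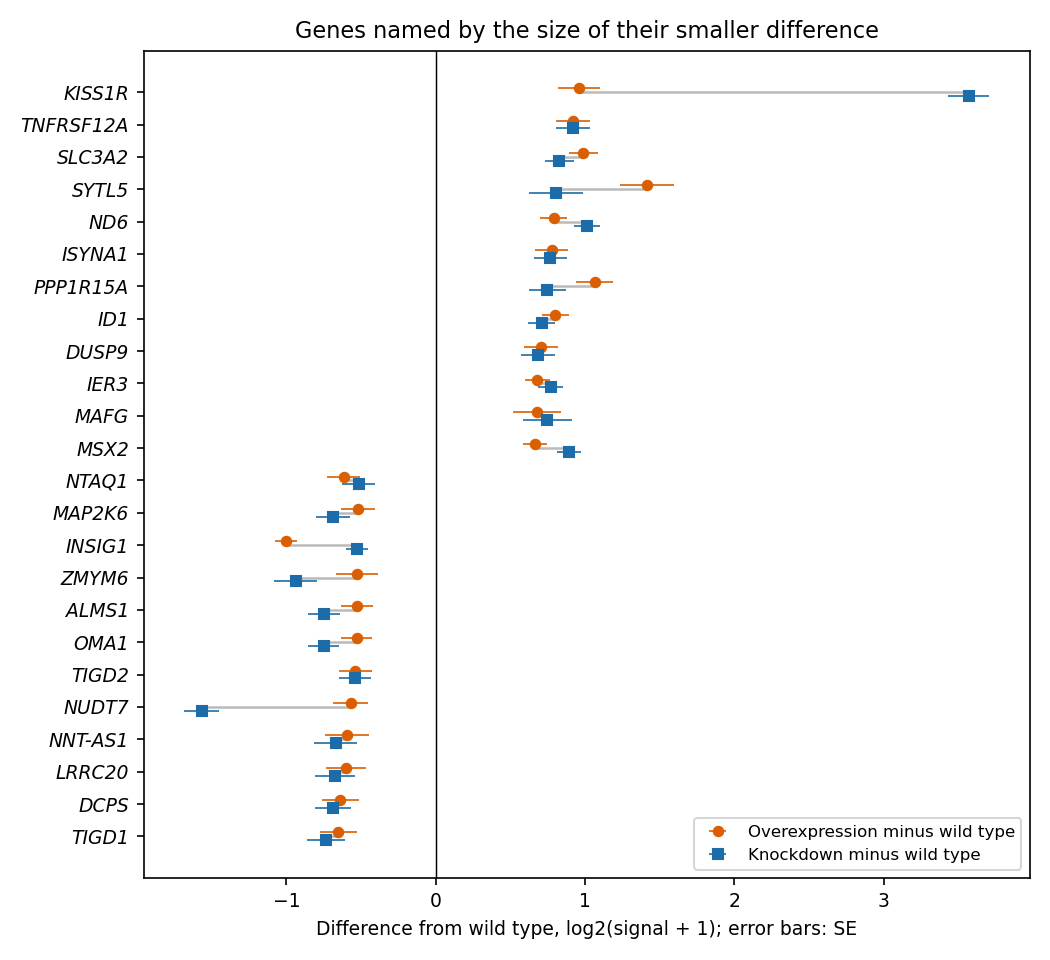
Differences from wild type in log2(signal + 1) (horizontal axis) for the 12 rises and 12 falls with the largest smaller difference, with overexpression as orange circles, knockdown as blue squares, error bars of ± 1 SE from the fit and a grey line joining both. The rises reach further than the falls, most pairs lie close together, and KISS1R and NUDT7 stand apart with a much larger knockdown difference.

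Many transcription factors of the immediate early class were raised. Of 26 measured members 13 were common and higher (50%, against 6.7% of all genes tested) and 1 was lower, with a median pooled difference over the 26 of 0.32, against -0.028 over all genes. In 8 of the 26 the transfected arrays all lay above wild type, against 3.28% of all genes. IER2, a nuclear early response factor, had 6420.3, 6195 and 5735 in the wild type arrays, 13301, 11077 and 12826 after overexpression and 9436, 9594 and 9953 after knockdown, and a pooled difference of 0.84 (SE 0.064, adjusted p = 5.18e-05). ATF3, a stress-induced member of the ATF family, had 3479, 3016 and 3401 in the wild type arrays, 8792, 7050.1 and 7563 after overexpression and 4684, 4562 and 4632 after knockdown, with a rise of 1.24 after overexpression and 0.49 after knockdown. Neither of its other tested probe sets passed after knockdown (adjusted p = 0.095 and 0.505), and 1 of them was not common. MAFF, a small MAF factor, had 623, 627 and 646 in the wild type arrays, 2588, 2793 and 2899 after overexpression and 679, 756 and 763 after knockdown. Its common call was carried by overexpression, at 2.12, while the knockdown difference of 0.21 did not pass by itself (adjusted p = 0.187).

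FOSL1 and JUNB, subunits of AP-1 named after their values were seen, rose by similar amounts in both treatments, with 1.22 after overexpression and 1.46 after knockdown for FOSL1 and 0.81 after overexpression and 0.90 after knockdown for JUNB. FOS, the founding AP-1 member and also chosen afterwards, had 106, 23.4 and 202 in the wild type arrays, 1147, 908 and 1429.5 after overexpression and 211, 106 and 178 after knockdown, so that knockdown overlapped wild type and the pooled difference of 2.40 came from overexpression. MYC, the growth-promoting factor, was the 1 member of the list that fell, with 17103, 15243 and 15048 in the wild type arrays, 14618, 11877 and 11992 after overexpression and 10359, 9502 and 9676 after knockdown, no overlap, and -0.30 after overexpression and -0.68 after knockdown. JUN did not pass, at -0.011, and EGR1 took opposite signs (2.24 after overexpression and -1.76 after knockdown). The count of 13 fell to 8 without any one of wild type replicate 1, wild type replicate 3 or overexpression replicate 1, and to 8 without the batch term; MYC was joined by a second lower member without knockdown replicate 3.

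Of 20 measured inhibitors and targets of ERK and p38 signalling 10 were common and higher (50%, against 6.7% of all genes) and 0 lower. Of the 10, 5 differed between the treatments, close to the 47.0% of all common higher genes. DUSP1, the inducible phosphatase of p38 and JNK, had 4412, 3621 and 3950.2 in the wild type arrays, 7312, 6985 and 7155 after overexpression and 5822, 5730.1 and 6204 after knockdown, without overlap, and a pooled difference of 0.71 (SE 0.066, adjusted p = 8.76e-05). ETV1, an ETS factor, had 420.3, 401 and 367 in the wild type arrays, 738, 939 and 965 after overexpression and 837, 902 and 842 after knockdown, and rose evenly, with 1.14 after overexpression and 1.12 after knockdown. The other tested DUSP1 probe set, a dimmer one, did not pass the pooled test (0.25, adjusted p = 0.632). A dimmer ETV1 probe set was also common (0.68), while the remaining tested ones did not pass (adjusted p = 0.0724 and 0.371). SPRY2 and SPRED2, inhibitors of the RAS pathway, were higher by 0.47 (SE 0.064) and 0.57 (SE 0.074). DUSP5 and DUSP6, the nuclear and cytoplasmic phosphatases of ERK named after their values were seen, were both higher: DUSP5 was higher by 0.69 after overexpression and 1.15 after knockdown, DUSP6 by 1.83 after overexpression and 0.60 after knockdown. For DUSP6 the treatments differed (adjusted p = 0.00594), and for DUSP5 the contrast did not pass (adjusted p = 0.0778). ETV5, chosen likewise, was higher by 2.93 after overexpression, while 2 of its 3 knockdown arrays lay within the wild type range.

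Of 26 measured genes induced by TGF-β and BMP 8 were common and higher (30.8%, against 6.7% of all genes tested). Common and lower were 0 (against 9.75%). At an unadjusted limma p under 0.05 stood 14 of the 26, for which no share over all genes is given. Beside GADD45B and ID1 the 8 higher members were the ligand BMP2, the transducer SMAD3, the inhibitory SMAD7, BAMBI, SMURF2 and BMPR2. BMP2, a secreted growth factor, had 402, 468 and 382 in the wild type arrays, 770.5, 661 and 656 after overexpression and 697, 661 and 689 after knockdown, and rose by 0.74 after overexpression and 0.71 after knockdown. SMURF2, a ubiquitin ligase of the receptors, and BAMBI, a decoy receptor, rose mainly after knockdown (0.13 and 0.59 for SMURF2, 0.13 and 0.78 for BAMBI, overexpression first), and in both the treatments differed (adjusted p = 0.000272 and 0.000156). Of the 3 other tested SMURF2 probe sets 1 was common, and 1 had the opposite sign without passing. ID2 and ID3, the close relatives of ID1, did not pass, at 0.15 and 0.13. The count of 8 was 5 without wild type replicate 1 and 4 in replicates 2 and 3 alone.

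Of 22 genes of the YAP and TEAD pathway 4 were higher (18.2%, against 6.7% of all genes tested) and 1 lower (4.55%, against 9.75%). CCN2, the sister of CCN1, had 270.5, 247 and 381 in the wild type arrays, 566, 699 and 653 after overexpression and 498, 568 and 522 after knockdown, and a pooled difference of 0.98 (SE 0.17, adjusted p = 0.0033). AJUBA, a LIM protein, and LATS2, the kinase that restrains YAP, were higher by 0.47 (SE 0.084) and 0.41 (SE 0.096). AMOT, a scaffold that binds YAP, was the member that fell. It had 2396, 3624 and 3522 in the wild type arrays, 1129.6, 1539.8 and 1330.4 after overexpression and 2632, 2777 and 2586 after knockdown, so the difference was -1.24 after overexpression, and the knockdown difference of -0.23 did not pass by itself (adjusted p = 0.156). YAP1 was at 0.016. Of 16 cytoskeletal genes driven by SRF and MRTF, 6 were higher (37.5%, against 6.7% of all genes tested) and 0 lower. Among the 6 were TAGLN2 (0.38, SE 0.049), FHL2 (0.56, SE 0.077), TPM1 (0.35, SE 0.052) and CNN2 (0.48, SE 0.10). Another TPM1 probe set was also common (0.37), while the remaining tested ones did not pass (adjusted p = 0.0817, 0.638 and 0.721). That with 0.638 had the opposite sign (-0.14). All 6 cytoskeletal genes passed after knockdown, and 2 of them, TAGLN2 and FHL2, after overexpression. Of all 806 common higher genes 701 passed after knockdown and 232 after overexpression. The count of 6 was 3 without wild type replicate 3. Of 12 measured NF-κB targets 3 were higher (25%, against 6.7% of all genes tested). NFKBIA, the inhibitor IκBα, was at 0.49 after overexpression and 0.42 after knockdown, LIF, a cytokine, at 0.83 (SE 0.19), and NFKBIB at 0.61 (SE 0.17). Without wild type replicate 1 or wild type replicate 3 the count was 1, with LIF and NFKBIB lost. Without the batch term it was also 1, with NFKBIA (adjusted p = 0.112) and NFKBIB lost. The other tested NFKBIB probe sets did not pass the pooled test (adjusted p = 0.056 and 0.39).

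**Figure D3:**
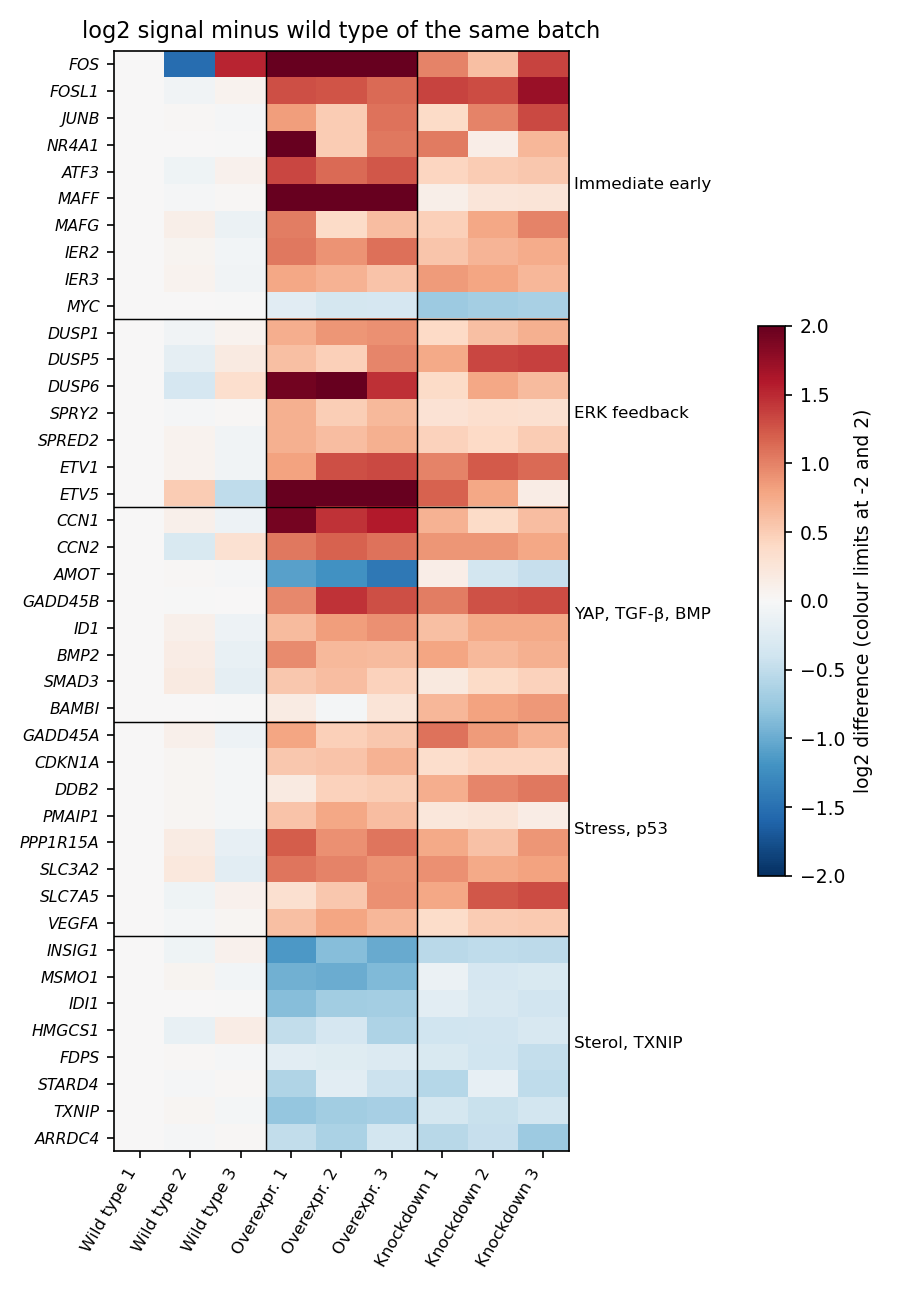
Each cell is the log2(signal + 1) of 1 gene (rows) on 1 array (columns) minus wild type of the same batch, from blue (lower) to red (higher), with colours limited at -2 and 2. Replicate 1 arrays are set against wild type replicate 1, which is 0 by construction, and the others against the mean of wild type replicates 2 and 3. The genes are examples of common genes by role, part of them chosen after their values were seen. The upper 4 blocks are mostly red in both treated groups save MYC and AMOT, stronger after overexpression for FOS, MAFF, DUSP6, ETV5 and CCN1, and the block of sterol genes, TXNIP and ARRDC4 is blue in both.

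Growth arrest and p53 target genes had the highest share of common rises of any list with 10 or more measured members. It was 13 of 23 (56.5%, against 6.7% of all genes tested), with 0 lower. The 13 all passed by themselves after knockdown, and 5 did after overexpression. Of all 806 common higher genes 701 passed after knockdown and 232 after overexpression. In 10 of the 13 the treatments differed, against 47.0% of all common higher genes. GADD45A, a growth arrest and repair factor, had 4917, 5616 and 4861 in the wild type arrays, 8531, 7271 and 7617 after overexpression and 10437, 9477 and 8503 after knockdown, with no overlap, and 0.61 after overexpression and 0.88 after knockdown. CDKN1A, the cell cycle inhibitor p21, had 5111, 4562 and 4289 in the wild type arrays, 7446, 6598 and 7126 after overexpression and 6514, 5929 and 5939 after knockdown, a pooled difference of 0.50 (SE 0.057, adjusted p = 0.000235), larger after overexpression (knockdown minus overexpression -0.20, adjusted p = 0.0366). DDB2, which recognizes ultraviolet damage, was higher by 0.38 after overexpression and 0.92 after knockdown, and TNFRSF10B, a death receptor, by 0.23 after overexpression and 0.66 after knockdown. PMAIP1, the pro-apoptotic NOXA, leaned the other way, with 0.65 after overexpression and 0.21 after knockdown. In TP53INP1 and POLH, named after their values were seen, the overexpression difference was near 0 (0.042 and 0.016). The count of 13 was 8 without wild type replicate 1, 7 in replicates 2 and 3 alone and 5 without the batch term.

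Of 30 genes of the ATF4 and unfolded protein response 8 were higher (26.7%, against 6.7% of all genes tested) and 0 lower, though the list's median was 0.099. Part of them were described above (ATF3, SLC3A2, SLC7A5 and PPP1R15A). SESN2, a sestrin that restrains growth signalling, was higher by 0.63 (SE 0.08). CHAC1, which degrades glutathione and was chosen after its values were seen, was higher by 1.10 after overexpression and 0.25 after knockdown. The 8 became 5 without wild type replicate 2. Of 29 hypoxia and glycolysis genes 10 were higher (34.5%, against 6.7% of all genes tested) and 1 lower (3.45%, against 9.75%). Against 232 of all 806 common higher genes, 1 of these 10 passed after overexpression by itself. This was VEGFA, the vascular growth factor, at 0.68 after overexpression and 0.46 after knockdown. TPI1, a glycolytic enzyme, was at 0.11 after overexpression and 0.58 after knockdown and the demethylase KDM3A at 0.28 after overexpression and 0.59 after knockdown. BNIP3L, a mitophagy receptor, was the 1 lower member (-0.38, SE 0.056). The count of 10 was 5 without wild type replicate 1 and 6 without wild type replicate 2.

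Part of the cholesterol synthesis genes fell. Of 21 measured members 8 were common and lower (38.1%, against 9.75% of all genes) and 0 higher, and the median pooled difference was -0.23. INSIG1, which holds the sterol sensor SCAP in the endoplasmic reticulum, had 13527, 16869 and 19120 in the wild type arrays, 6116, 9994 and 8909.6 after overexpression and 9351, 12575 and 12456 after knockdown. All 6 transfected arrays lay below wild type, with differences of -1.0 after overexpression and -0.52 after knockdown, and the fall was larger after overexpression (adjusted p = 0.000531); both other tested INSIG1 probe sets were common as well. MSMO1, a sterol oxidase whose promoter is printed above, had 25759.7, 27325 and 25372 in the wild type arrays, 13259, 13170.1 and 14319 after overexpression and 23848, 20970.3 and 21319 after knockdown, with differences of -0.95 after overexpression and -0.25 after knockdown. IDI1, an isomerase of the mevalonate branch, had a pooled difference of -0.52 (SE 0.058), and FDPS, which makes farnesyl diphosphate, of -0.32 (SE 0.047). SQLE, the squalene epoxidase, had opposite signs (-0.69 and 0.076). The 8 became 4 without wild type replicate 1, in replicates 2 and 3 alone or without the batch term.

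TXNIP and ARRDC4, arrestin-related proteins that limit glucose uptake and are driven by MondoA, were both lower. They were the 2 common members of 9 genes measured for glucose sensing (22.2%, against 9.75% of all genes lower). TXNIP had 4476, 4504 and 4239 in the wild type arrays, 2623, 2704 and 2745 after overexpression and 3521, 3201 and 3401 after knockdown, and -0.71 after overexpression and -0.39 after knockdown. ARRDC4 had 5089, 5521 and 5694 in the wild type arrays, 3633, 3609 and 4370 after overexpression and 3472, 4086 and 3383 after knockdown, and a pooled difference of -0.54 (SE 0.079, adjusted p = 0.00108). Neither overlapped wild type. The other 2 tested TXNIP probe sets were also common, at -0.33 and -0.25 pooled, though their knockdown differences did not pass by themselves (adjusted p = 0.285 and 0.688).

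**Figure D4:**
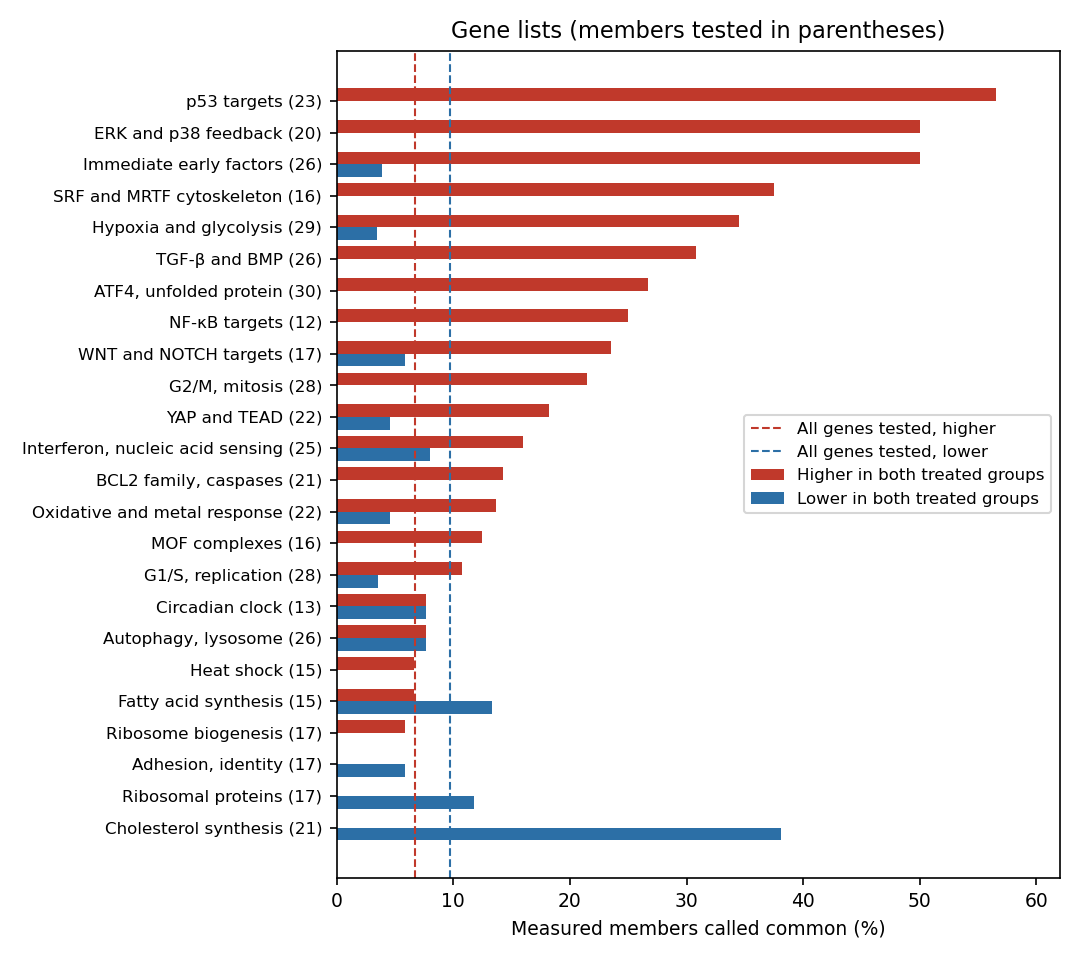
Share of the measured members of each gene list (horizontal axis, %) that were common and higher (red) or common and lower (blue), for lists with 10 or more measured members, whose number stands in parentheses. Dashed lines give the share over all 12036 genes, 6.7% higher and 9.75% lower. The p53, ERK feedback and immediate early lists reach 50% or more higher, and cholesterol synthesis 38.1% lower.

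Of 25 genes of the interferon and nucleic acid sensing response, which cells can raise against foreign RNA or DNA, 4 were higher (IFIT3, IRF9, IFITM1 and IFITM3) and 2 lower (ADAR and HERC6). These shares were 16% and 8%, against 6.7% higher and 9.75% lower over all genes tested. IFIT3 had 177, 145 and 194 in the wild type arrays, 121, 274 and 227 after overexpression and 1071, 1199.6 and 1046 after knockdown, so only knockdown stood apart, and IRF9 was at 0.16 after overexpression and 0.96 after knockdown. ISG15 had opposite signs (-0.26 and 1.66). The calls of IRF9 and ADAR ended without wild type replicate 1, that of IRF9 also without wild type replicate 3, those of ADAR and HERC6 without wild type replicate 2, and that of IFIT3, by its sign, without overexpression replicate 2. Without wild type replicate 3 the 4 became 1, and without wild type replicate 1 or knockdown replicate 2 they became 2. The count of lower members was 1 without wild type replicate 1, where HERC6 kept its call. It was also 1 without wild type replicate 2, where the member called was neither ADAR nor HERC6.

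Of 28 genes of G2/M and mitosis 6 were higher (21.4%, against 6.7% of all genes tested). After overexpression by itself 0 of the 6 passed, against 232 of all 806 common higher genes. CDC20, an activator of the anaphase complex, was at 0.17 after overexpression and 0.68 after knockdown, and the survivin gene BIRC5 at 0.22 after overexpression and 0.33 after knockdown. The 6 became 3 without wild type replicate 3. Of 28 genes of G1/S and replication 3 were higher (10.7%, against 6.7% of all genes tested) and 1 lower (3.57%, against 9.75%). The higher ones included UHRF1 (0.33, SE 0.048), and 0 were higher without the batch term. GINS1, of the replicative helicase, was the lower member (-0.33, SE 0.054). The lower count of 1 was 3 without knockdown replicate 1 and 2 without overexpression replicate 2. Of 17 WNT and NOTCH targets 4 were higher (23.5%, against 6.7% of all genes tested) and 1 lower (5.88%, against 9.75%). The lower call was lost without wild type replicate 2. The higher count fell to 1 without wild type replicate 1 or wild type replicate 2. It fell to 2 without wild type replicate 3, overexpression replicate 1, overexpression replicate 3 or knockdown replicate 2. Of 15 heat shock genes 1 was common and higher (6.67%, against 6.7% of all genes tested). This was HSPB1, at 0.15, and it lost its call in 8 of the 9 fits without 1 array. Of 16 genes of the MOF-containing complexes 2 were common, both higher (12.5%, against 6.7% of all genes tested). They were OGT (0.42, SE 0.059), the enzyme that adds O-GlcNAc, and KANSL2 (0.27, SE 0.058). For OGT 1 of 4 other tested probe sets was common. The call of KANSL2 ended without wild type replicate 3, and without overexpression replicate 2 the count was 4. The 1 common gene of 17 adhesion and identity genes was CDH1, the epithelial cadherin, which was lower (5.88%, against 9.75% of all genes tested). CDH1 had 1836, 1720.5 and 2121 in the wild type arrays, 1258, 1434 and 1612 after overexpression and 513, 556 and 557 after knockdown. The differences were -0.40 after overexpression and -1.80 after knockdown, unequal by the contrast of the treatments (adjusted p = 1.48e-05), and the overexpression difference did not pass by itself (adjusted p = 0.095). Of 17 cytosolic ribosomal protein genes 2 were lower (11.8%, against 9.75% of all genes tested), a share close to that of all genes. The count rose to 8 without wild type replicate 1 and fell to 1 when knockdown replicate 2 was left out. With knockdown replicate 1 left out it was 4. It was 0 without overexpression replicate 3 or either of the wild type replicates 2 and 3. The other lists held 1 to 4 common members each, and those of fibroblast, blood and endothelial markers held none.

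**Figure D5:**
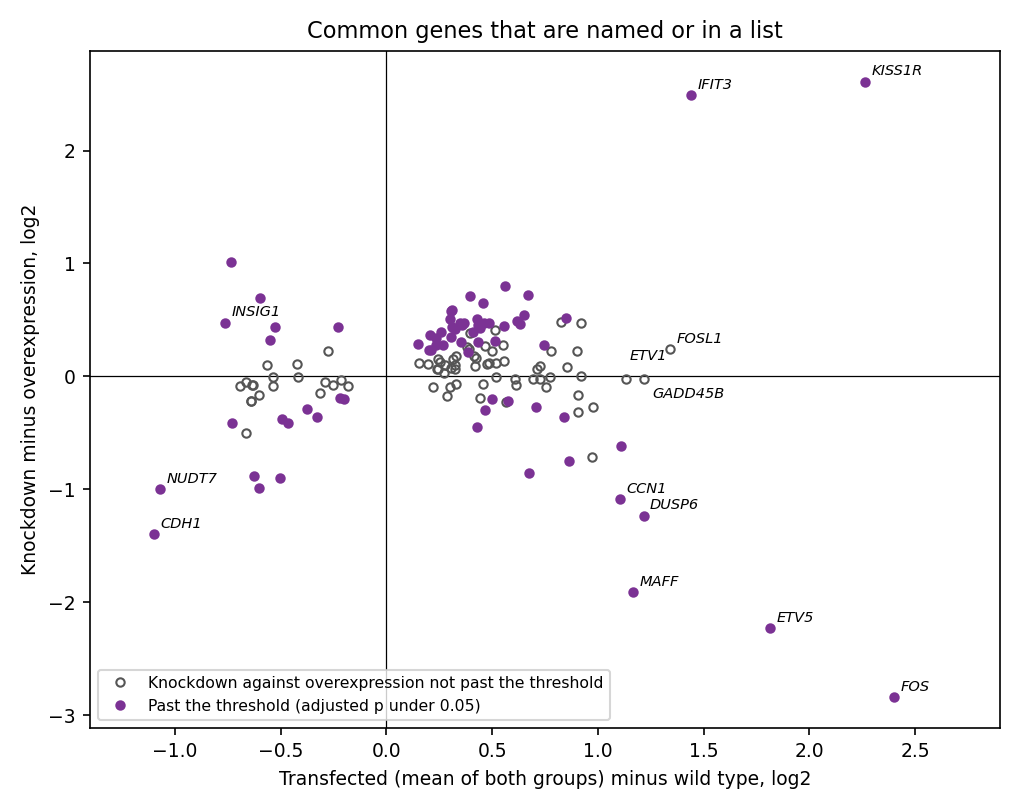
Each point is 1 of 147 common genes that are named or in a list, with the pooled log2 difference from wild type on the horizontal axis and knockdown minus overexpression, log2, on the vertical axis. Filled points (72) passed the contrast of the treatments and open points (75) did not. GADD45B, FOSL1 and ETV1 lie near 0 on the vertical axis. KISS1R and IFIT3 lie far above it, and FOS, ETV5, MAFF, DUSP6 and CCN1 far below.

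Some identity markers of the line were present throughout: the neurofilament gene NEFL, long known to be expressed in HEK293, had signals of 7563 to 8405 over the 9 arrays and VIM, vimentin, of 64307 to 85791. The keratin KRT8 separated the groups, with 879 to 1014 in wild type, 1352 to 1658 after overexpression and 598 to 720.5 after knockdown. Its partner KRT18 was higher after overexpression (10676 to 11590) than in wild type (8436 to 10121), while knockdown (7768 to 8829) overlapped wild type. Of the lists for other cell types, 3 of 10 fibroblast, 1 of 10 blood and 1 of 7 endothelial markers passed the filter on dim probe sets. Of the neuronal and adrenal markers 8 of 15 passed it, and of the adhesion and identity genes 17 of 24. The summed signal of the 7 blood markers on the array was 563 to 856 in wild type, 610 to 919 after overexpression and 386 to 743 after knockdown, and that of the 7 endothelial markers 506 to 739, 469 to 669 and 429 to 560. The 10 fibroblast markers summed to 3438 to 3660, 3175 to 4291 and 2495 to 3022. The ratio of the 3′ to the 5′ signal of ACTB, a measure of RNA integrity, was 1.39 to 1.43 in wild type, 1.18 to 1.38 after overexpression and 1.21 to 1.31 after knockdown, so it was lower in every transfected array, while that of GAPDH overlapped (0.990 to 1.04, 0.981 to 1.11 and 0.996 to 1.11). Its part in the results was not tested. The signals of all arrays share 1 trimmed mean, so a change in RNA content of the whole cell leaves no trace in these values.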

How the data were processed

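Total RNA of the 9 samples was labelled with biotin and hybridized to 1 oligonucleotide array each. Each deposited value is a linear intensity that the authors computed per probe set; the submitters' processing notes name MAS5 and no settings. The deposited signals were transformed to log2(signal + 1). Without the 62 controls, the 27307 probe sets whose mean lay at or above the median (7.56, a signal of about 188) were fitted in limma 3.58.1 (R 4.3.3; lmFit, eBayes with a trend), with 3 groups and a term for replicate 1 (residual degrees of freedom 5). Tests are two-sided and p-values Benjamini-Hochberg adjusted over all probe sets tested. The added 1 lowers fold changes only slightly at such signals. With 32 added, the difference of GADD45B was 1.16 in place of 1.22. Dim signals can scatter widely, as the wild type values of FOS did. The labels name no batch; the replicate 1 term goes with the added poly-A controls, which were 2.22-fold brighter in replicates 2 and 3 than in replicate 1, without overlap, against 1.04-fold between transfected and wild type arrays. Each gene stands for its tested probe set of highest mean among the 41097 with 1 symbol in the platform annotation; 41043 of these matched RefSeq by Entrez ID.

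The genes named are KAT8, the 3 markers, the 12 rises and 12 falls with the largest smaller difference (all transfected arrays on one side of wild type, the brighter side in the top 25% of signals), and, of each list with a common member, no more than the 4 with the lowest p. Others were chosen after their values were seen. The comparison, markers and 30 gene lists were chosen with earlier results of these data known. Lists are described by counts and medians. On simulated log2 values of the pooled comparison (27307 probe sets, 200 changed) the fit recovered 48% of changes of 0.5, 70% of 1, 92% of 1.5 and 96% of 2, with 7 false among 160 calls. Within groups, arrays correlated at 0.925 to 0.934, and no 2 arrays were identical. Precision is limited by 3 arrays per group. Figures were drawn with matplotlib 3.10.9.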

Additional observations from a re-analysis of the deposited data

Results flagged for a closer look

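Among the 12 rises, the 12 falls and the 3 markers, 6 genes had unequal differences from wild type in the treatments. The test was the limma contrast of knockdown with overexpression, adjusted over all probe sets. It passed in 33% of all genes tested, in 47.0% of the common higher and in 57.7% of the common lower genes. The 6 are therefore no excess over those shares. ID1 is both a rise and a marker. KAT8 and many named list members, such as CDH1, BAMBI and SMURF2, also passed it and are not among the 6. KISS1R rose by 2.61 more (log2) after knockdown (adjusted p = 3.62e-07). For CCN1 and SYTL5 overexpression was the higher, with knockdown minus overexpression of -1.09 (adjusted p = 3.06e-05) and -0.61 (adjusted p = 0.0231). NUDT7 and ZMYM6 were lower after knockdown, at -1.0 (adjusted p = 8.95e-05) and -0.41 (adjusted p = 0.045), and INSIG1 was lower after overexpression, at 0.48 (adjusted p = 0.000531). The transfected arrays of all 6 lay on one side of wild type, which the naming rule requires of all but the marker CCN1.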

How the results depend on the processing

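The count of 3591 common probe sets was 1070 without the batch term, 1682 in replicates 2 and 3 alone and 2086 without the variance trend. With 1 array left out it ran from 1766 to 4052. Of the common probe sets, the number whose treatments differed was 1747, and 527, 788 and 997 under the same 3 settings, and 930 to 1580 with 1 array left out. Quantile normalization, median centring, a pseudocount of 32 and stricter or no filtering kept both counts within 1.5 times. With the replicate number as a replicate block the counts were 3534 and 1708; deviations of same-numbered arrays correlated at 0.083 to 0.45 and 5 of 9 arrays correlated best with their own number in both other groups, a hint from the data of a shared set. Since not every pair was above 0.1 and the labels name no shared source, the numbers were not taken to pair the samples. A gene counted through any of its tested probe sets gave 2503 common genes in place of 1979. Of the 99 named common genes 63 kept their call under every alternative run, 73 with any 1 array left out, 83 in replicates 2 and 3 alone and 68 without the batch term, and 0 reversed. LPIN1, HSPB1, NEU1, GCLM, CDC25A, HES4, FASN and NFKBIB each lost their call in 5 or more of the 9 fits without 1 array. Without the batch term the counts of higher members were 5 for p53, 5 for TGF-β and BMP, 4 for ATF4, 3 for SRF, 3 for G2/M, 1 for NF-κB, 1 for interferon, 1 for WNT and NOTCH and 0 for G1/S, and lower interferon members numbered 0. Testing only the probe sets above the 75th percentile, which leaves fewer members, gave 6 for ERK and p38 and 7 for immediate early genes. Probe sets below the median signal were not tested in the reported fit; with none left out, 2680 were common.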

Other observations

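Some groups outside the lists were picked by name after their values were seen, so their counts carry no test. Of 25 measured HOX genes of the 4 clusters, which set position along the body axis, 14 were common and higher (against 6.7% of all genes tested) and 0 lower, with medians over the 25 of 0.13 after overexpression and 0.62 after knockdown. HOXC11 was higher by 0.50 after overexpression and 0.91 after knockdown, and HOXD9 by 0.34 after overexpression and 0.89 after knockdown. Of 18 measured IFT genes, which carry cargo along cilia, 6 were common and lower (against 9.75% of all genes tested) and 0 higher, again with the larger median after knockdown (-0.59, against -0.079 after overexpression). IFT43 had a pooled difference of -0.61 (SE 0.073) and IFT80 of -0.53 (SE 0.078). Of 44 measured NDUF genes, nuclear-encoded subunits and assembly factors of complex I, 8 were lower, again against 9.75% of all genes, and 1 higher, while the complex I subunits ND6 and ND2, encoded in mitochondrial DNA, were higher by 0.90 (SE 0.076) and 0.50 (SE 0.073), as was COX3 of the same genome, at 0.21 after overexpression and 1.18 after knockdown, where the arrays overlapped wild type and the overexpression difference did not pass by itself (adjusted p = 0.581). ND4, COX1, COX2 and ATP6 did not pass, with pooled values from -0.094 to 0.13.

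Common higher genes were short and common lower genes long in the annotation. The median genomic span (GRCh38.p14) was 14.6 kb in the 806 higher, 39.0 kb in the 1173 lower and 30.8 kb in all genes tested with a span. Genes under 10 kb made up 38.7%, 17.1% and 21.3%. With calls from replicates 2 and 3 alone, a setting added after seeing the data, the medians were 12.9 kb for 418 higher and 31.8 kb for 556 lower genes, the latter close to all genes. Split by treatment, also added afterwards, the higher genes had medians of 15.8 kb where overexpression and 14.4 kb where knockdown had the larger difference, and the lower genes of 60.3 kb and 36.0 kb.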
